A study of Mus musculus with 8 samples.

Results

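The enzymes of glycolysis, the pentose phosphate pathway and the tricarboxylic acid (TCA) cycle were compared between 2 states of a mouse acute myeloid leukemia (AML). The set was fixed by name and holds 51 genes: 20 of glycolysis, 6 of the pyruvate dehydrogenase complex and its kinases, 7 of the pentose phosphate pathway, 15 of the TCA cycle, and 3 (Me2, Pcx and Acly) that feed or drain the cycle. Of these, 49 had an entry among the 12823 genes of the count table; Eno2 and Ldhb were not analysed here. All 49 passed the filter on low counts, which left 12494 genes for testing.

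The cells were C57BL/6 mouse bone marrow progenitors transduced with the MLL-AF9 fusion gene together with GFP, so both groups carry the same oncogene. New AML cells (4 libraries) came from the leukemia that first arose in sublethally irradiated recipients. Aggressive AML cells (4 libraries) are described as descendants of this leukemia after 5 serial transplantations. The methods describe these passages as made in non-irradiated recipients, so passage and host irradiation cannot be told apart. GFP+ cells were sorted from the bone marrow, the recipients are described as young adult males, poly-A RNA was sequenced in pairs, and the libraries are labelled as biological replicates of each group. The labels tie no library to a mouse, although the study states its group size for male mice.

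Glycolysis turns glucose into pyruvate and, through lactate dehydrogenase, into lactate, yielding ATP and precursors in the cytosol. The pentose phosphate pathway branches off at glucose 6-phosphate and provides NADPH and ribose for nucleotides, and the TCA cycle oxidizes acetyl-CoA made from pyruvate in the mitochondrion. Growing leukemia cells are known for heavy use of glucose, and transcripts are only one of the layers that set the flux through these pathways.

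The libraries held between 7805544 and 9697777 counts. Levels are given as CPM, that is counts scaled to library size, after TMM scaling, in which the scaling factors lay between 0.986 and 1.01. Each of the 10 leukemia and myeloid progenitor markers examined was detected; Kit and Meis1 rose and Hoxa10, Spi1, Itgam and Csf1r fell. An entry was present for 1 of 6 T cell, 3 of 5 B cell and 0 of 5 NK cell markers, and the 1 T and 1 B cell marker that could be tested were not called. Of 14 neutrophil markers, 9 fell and 1 rose in aggressive AML, and their summed level was 488 to 675 CPM in new AML and 293 to 362 CPM in aggressive AML. Among macrophage markers 7 of 11 had an entry and 1 of the 6 tested fell (summed 231 to 285 CPM in new and 175 to 242 CPM in aggressive AML), while C1qa, C1qb, Marco and Siglec1 had none. Of 14 erythroid markers 13 had an entry and 3 of 9 tested fell (summed 140 to 220 against 121 to 155 CPM). Tfrc alone made up 79.3 to 110 CPM of the erythroid sum in new and 87.4 to 110 CPM in aggressive AML (log2 fold change -0.02). All 9 tested erythroid markers had fold changes below 0 (median -1.02 on the log2 scale), as had all 6 tested macrophage markers (median -0.86). In bulk RNA, fewer cells of one type and less RNA per cell cannot be told apart, and the part of these cell states in the enzyme values was not tested. The Y-linked genes Ddx3y, Eif2s3y, Kdm5d and Uty together had 2315 to 2574 counts in every new AML library and 0 counts in every aggressive AML library. The groups thus differed in Y-linked RNA. Whether this came from the sex chromosomes, the lineage or both was not tested, and the difference cannot be told apart from passage. Its part in the fold changes was not tested.

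Glycolysis held most of the members called between the groups. Of its enzymes from triose phosphate isomerase down to lactate dehydrogenase, Pgk1, Eno1, Pkm and Ldha rose in aggressive AML and the other 3 had fold changes above 0, while Hk1 was the 1 hexokinase of 3 that fell. The pentose phosphate and TCA lists had calls in both directions, and the 1 member of the TCA list that fell was the cytosolic Idh1. Over all 49 members, 10 rose and 4 fell in aggressive AML at an adjusted p under 0.05 (edgeR quasi-likelihood test, Benjamini-Hochberg over 12494 genes), which is 28.6%, against 18.4% of all genes tested (8.15% rose and 10.2% fell). For 14 members the libraries of the groups were fully separated (8 higher, 6 lower), where 21.8% of all genes tested were so separated (9.76% higher and 12% lower). Glycolysis had 9 of 18 members called (50%), the pentose phosphate pathway 2 of 7 (28.6%), the TCA cycle 3 of 15 (20%), the pyruvate dehydrogenase group 0 of 6 and the 3 entry and exit enzymes 0 of 3. The median log2 fold change, aggressive over new, was 0.22 for glycolysis, 0.12 for the pyruvate dehydrogenase group, 0.06 for the TCA cycle, 0.02 for both the pentose phosphate pathway and the entry and exit enzymes, and 0.00 for all genes tested. These are descriptions of the lists and the pathways were not tested against each other. The medians depended on single libraries. Without new AML replicate 4 the glycolysis median was 0.13 and that of the pyruvate dehydrogenase group 0.16, so their order turned. Over all fits that left out a library, the TCA median ranged from 0.035 (without new AML replicate 4) to 0.11 (without new AML replicate 3), that of pyruvate dehydrogenase from 0.080 (without new AML replicate 1) to 0.17, and those of the pentose phosphate and the entry and exit genes took both signs. Without new AML replicate 2 the number of members that rose went from 10 to 6, and without new AML replicate 1 or without aggressive AML replicate 4 the number that fell went from 4 to 2. Over all genes tested, those that rose went from 1018 to 633 without new AML replicate 2. Those that fell went from 1278 to 1001 without new AML replicate 1 and to 1283 without aggressive AML replicate 4.

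**Figure D1:**
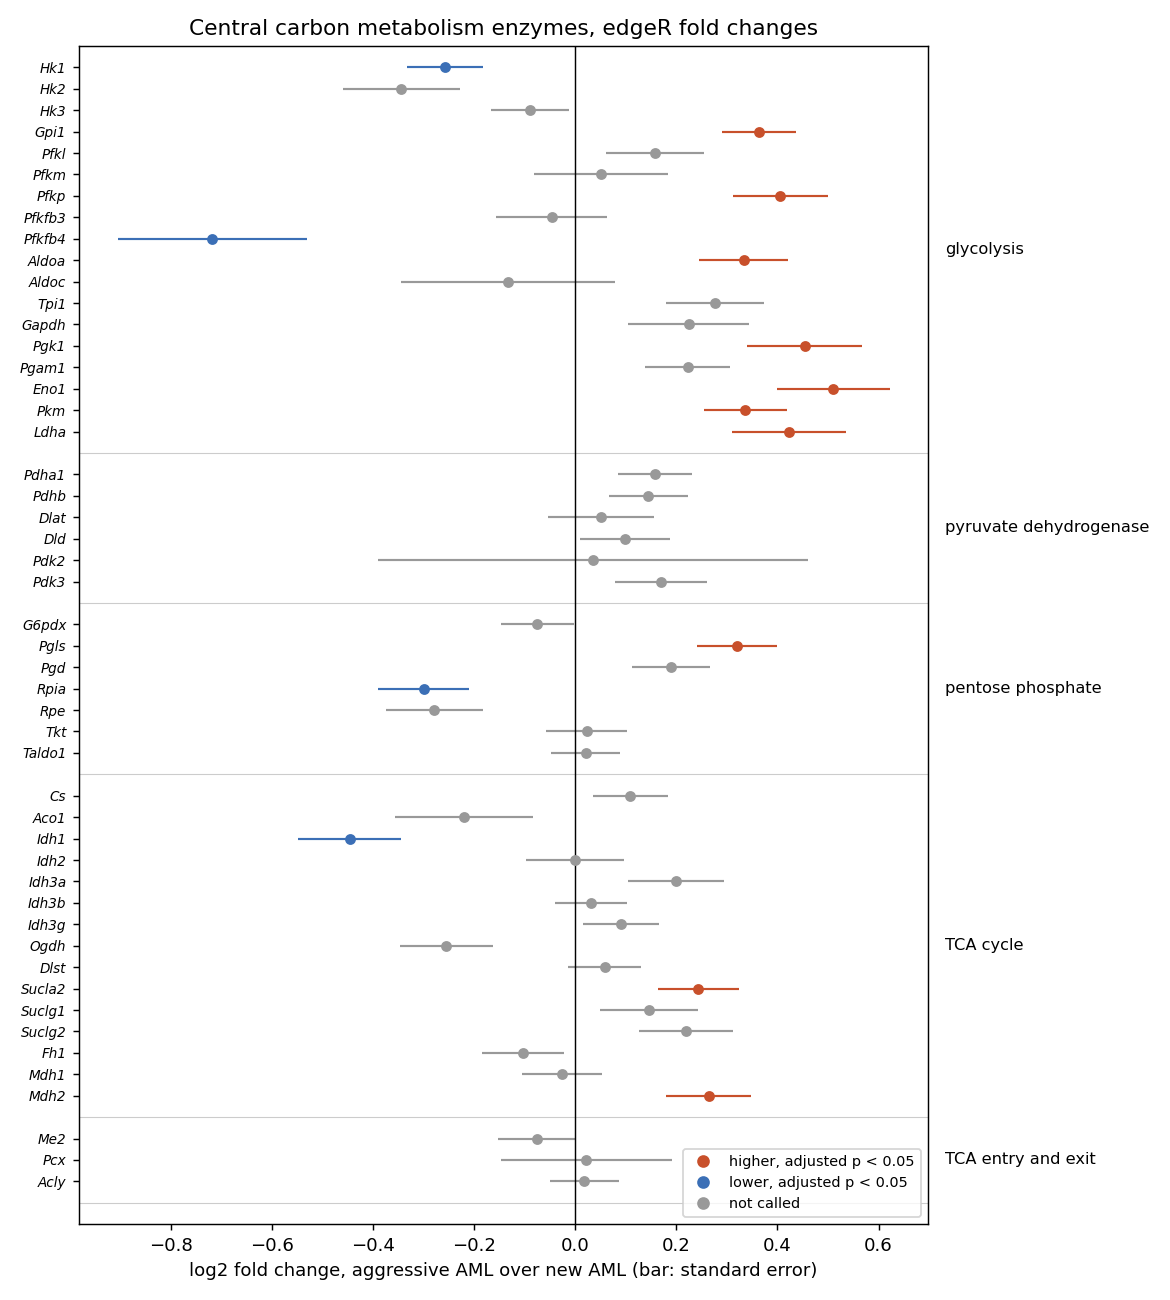
Log2 fold change of each of the 49 tested members (x axis, aggressive over new AML, edgeR) with its standard error as a bar; red marks members that rose, blue members that fell at an adjusted p under 0.05, and gray members not called. All 7 glycolysis genes from Tpi1 to Ldha lie right of 0, and the 3 hexokinases lie left of it.

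The first step of glycolysis is the trapping of glucose by hexokinases. Hk1, the broadly expressed hexokinase (chr10:62268855-62379920, minus strand; gene spans here are those of RefSeq on GRCm38.p6), stood at 126, 119, 133 and 122 CPM in the new AML libraries and at 104, 111, 104 and 99.0 CPM in the aggressive ones. The groups did not overlap, and Hk1 fell by 0.26 on the log2 scale (SE 0.07, edgeR adjusted p = 0.0257). Hk2, the inducible form, had 105, 114, 108 and 116 CPM in new AML and 93.8, 101, 63.5 and 90.1 CPM in aggressive AML, again with no overlap, but its adjusted p was 0.0508. Hk3, a hexokinase of myeloid cells, was by far the most abundant of the 3 per kilobase of transcript, at 309 CPM per kb over all libraries, against 23.7 for Hk1 and 17.6 for Hk2. Its groups overlapped (log2 fold change -0.09, SE 0.08, adjusted p = 0.447). Hk1 was not called without new AML replicate 1 or 3 or aggressive AML replicate 1 or 4 (adjusted p from 0.0541 to 0.0696).

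The next steps convert and split the hexose phosphate. Gpi1, glucose 6-phosphate isomerase (chr7:34201327-34230336, minus strand), had 656, 615, 663 and 598 CPM in new AML and 869, 861, 783 and 746 CPM in aggressive AML. Every aggressive library lay above every new one, and Gpi1 rose by 0.36 (SE 0.07, edgeR adjusted p = 0.00286). Of the phosphofructokinases, which catalyze the committed step, only the platelet form Pfkp (chr13:6579874-6649060, minus strand) was called, with 134, 143, 181 and 143 CPM in new and 204, 212, 199 and 181 CPM in aggressive AML. New AML replicate 3, at 181.1 CPM, lay just above aggressive AML replicate 4, at 180.6 CPM, so the groups overlapped. The log2 fold change of Pfkp was 0.41 (SE 0.09, edgeR adjusted p = 0.00755). The liver form Pfkl (0.16, adjusted p = 0.277) and the muscle form Pfkm (0.05, adjusted p = 0.821) were not called.

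Pfkfb4 (chr9:108988272-109032236, plus strand), one of the enzymes that make and break the phosphofructokinase activator fructose 2,6-bisphosphate, had the largest fold change of the 49 members in either direction. It was a low transcript, at 10.6, 12.1, 11.8 and 12.7 CPM in new AML and 9.40, 5.54, 6.09 and 7.62 CPM in aggressive AML. The groups did not overlap, and it fell by 0.72 on the log2 scale (SE 0.19, edgeR adjusted p = 0.0149). Its paralog Pfkfb3 stood at 90.4 ± 7.05 CPM (SD, n = 4) in new and 87.5 ± 14.6 CPM in aggressive AML and was not called (adjusted p = 0.806). Aldoa, the aldolase that splits fructose 1,6-bisphosphate (chr7:126795234-126800994, minus strand), had 987, 964, 1111 and 833 CPM in new and 1323, 1222, 1253 and 1108 CPM in aggressive AML. The highest new library, replicate 3, lay just above the lowest aggressive one, replicate 4, and Aldoa rose by 0.33 (SE 0.09, adjusted p = 0.0154).

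The lower part of the pathway, taken here from triose phosphate isomerase to lactate dehydrogenase, includes the steps that yield ATP. Of its 7 tested genes 4 rose, none fell, and all 7 fold changes were above 0, with a median of 0.34. The 11 genes from hexokinase to aldolase, by comparison, had 3 that rose and 2 that fell, with a median of -0.046. Phosphoglycerate kinase Pgk1 (chrX:106187100-106203699, plus strand), which makes the first ATP of this part, had 61.3, 55.0, 73.7 and 48.7 CPM in new and 82.8, 85.6, 85.9 and 72.9 CPM in aggressive AML. New AML replicate 3 again passed aggressive AML replicate 4, and the log2 fold change was 0.45 (SE 0.11, edgeR adjusted p = 0.0121).

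Eno1, the enolase of most tissues (chr4:150236708-150248879, plus strand), showed the largest rise among the members. It stood at 266, 232, 299 and 188 CPM in new AML and at 345, 373, 359 and 326 CPM in aggressive AML. The groups did not overlap, and the log2 fold change was 0.51 (SE 0.11, edgeR adjusted p = 0.00508). Pyruvate kinase Pkm (chr9:59656576-59679372, plus strand), the most abundant glycolysis member per kb at 663 CPM per kb, had 1518, 1481, 1739 and 1350 CPM in new and 1965, 1966, 2003 and 1754 CPM in aggressive AML. Its groups were separated by a narrow margin, between new AML replicate 3 and aggressive AML replicate 4, and it rose by 0.34 (SE 0.08, adjusted p = 0.0101).

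Lactate dehydrogenase A, Ldha (chr7:46842274-46855627, plus strand), which turns pyruvate into lactate, had 648, 554, 768 and 481 CPM in new and 851, 855, 827 and 754 CPM in aggressive AML. Aggressive AML replicate 4 lay just under new AML replicate 3, and the log2 fold change was 0.42 (SE 0.11, edgeR adjusted p = 0.0168). The other 3 genes of the lower part were not called: Tpi1 at 0.28 (adjusted p = 0.0588), Gapdh at 0.22 (adjusted p = 0.209) and Pgam1 at 0.22 (adjusted p = 0.0796). Pgam1 had no overlap between the groups, at 244 to 310 CPM in new and 316 to 366 CPM in aggressive AML. Aldoc, the remaining glycolysis member, was a minor transcript at 7.43 and 6.80 CPM on average (log2 fold change -0.13, adjusted p = 0.702).

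The same libraries set the extremes of these genes. For all 7 glycolysis members that rose, new AML replicate 3 was the highest new library, and aggressive AML replicate 4 was the lowest aggressive one. New AML replicate 4 was the lowest new library for 6 of the 7. Other lists showed part of this too. New AML replicate 3 was the highest new library for 11 of 15 TCA, 5 of 6 pyruvate dehydrogenase and 2 of 7 pentose phosphate genes. Aggressive AML replicate 4 was the lowest aggressive library for 7 of 15 TCA, 1 of 6 pyruvate dehydrogenase and 4 of 7 pentose phosphate genes. Sharing their extreme libraries, the 7 genes are not independent measurements of the difference. The number of glycolysis members that rose ranged from 5 to 8 when each library was left out in turn, while the number that fell went from 2 to 1 without new AML replicate 1 or 3, or without aggressive AML replicate 1 or 4.

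**Figure D2:**
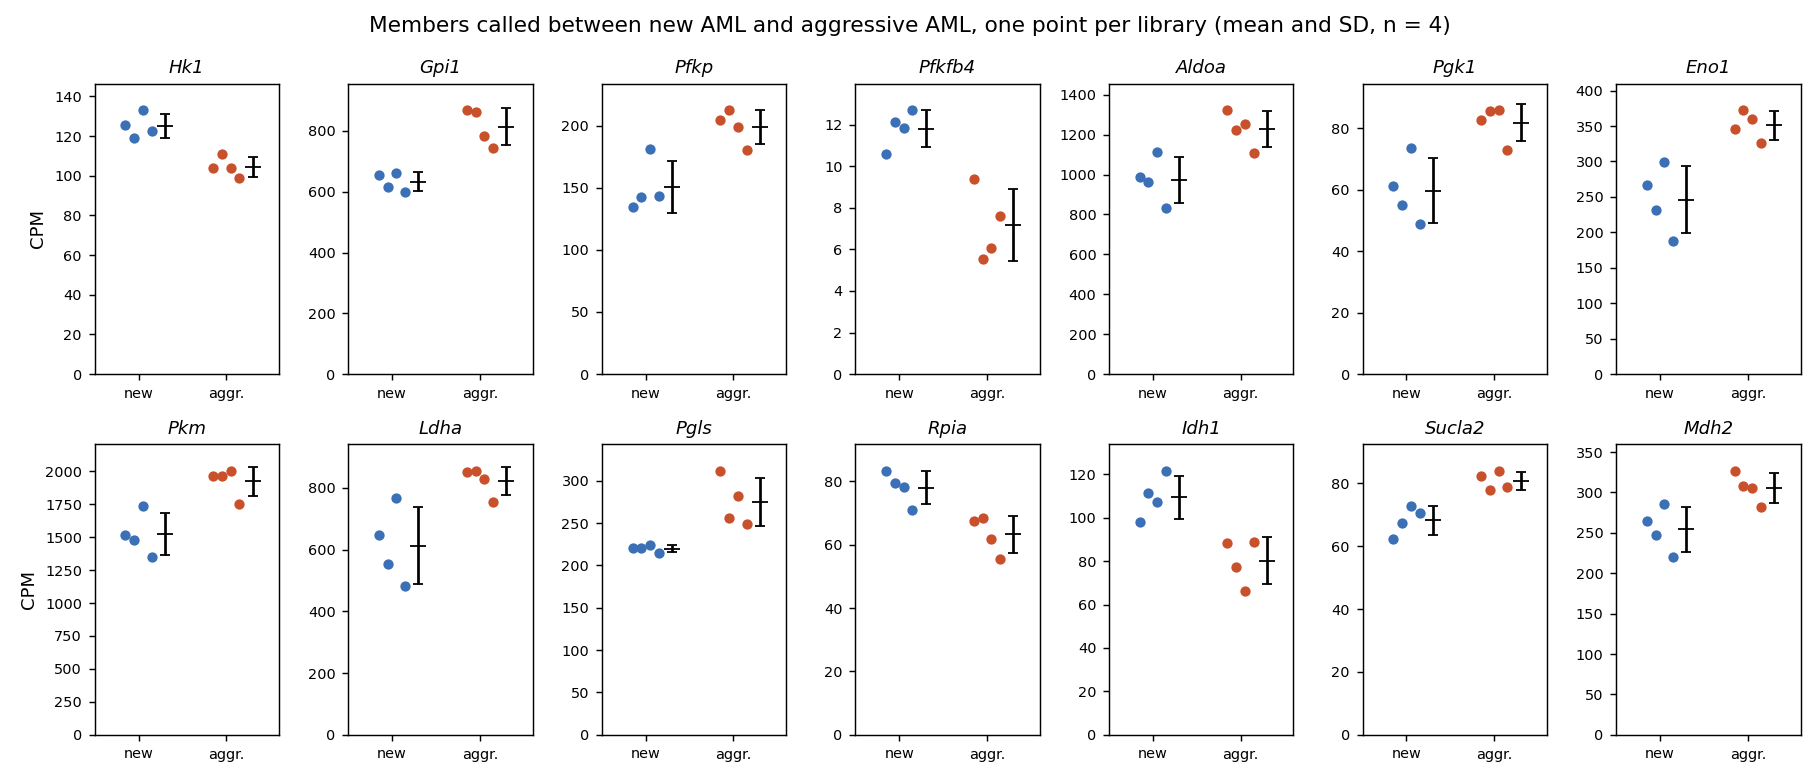
CPM of the 14 called members, each panel one gene, with one point per library for new AML (blue) and aggressive AML (red), the mean as a black dash and the SD as a bar (n = 4 each); every y axis starts at 0. The shifts are small beside the levels: the mean of Pkm goes from 1522 to 1922 CPM and that of Pfkfb4 from 11.8 to 7.16 CPM.

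Several glycolytic enzymes have many pseudogene or retrogene copies in the mouse genome, and how the counting treated reads that match more than one place is not given in the sources used here. To show where this could bear on the values, the transcript with the longest coding sequence of each member (GENCODE M21) was cut into all windows of 50 bases, and the share of windows found identically, on the same strand, in transcripts of other genes was computed. The share was 82.5% for Gapdh, 72.2% for Eno1, 68.0% for Pgk1, 41.5% for Pgam1, 34.4% for Pkm, 19.3% for Gpi1, 16.6% for Ldha and 13.5% for Aldoa. Of these 8 genes 6 rose, and their median log2 fold change was 0.35. The other 10 glycolysis genes shared at most 10% of their windows, and of them 1 rose (Pfkp) and 2 fell (Hk1 and Pfkfb4), with a median of -0.068. With the limit at 20% in place of 10%, which keeps 13 genes, 4 rose and 2 fell, with a median of 0.05. Both limits were chosen after the values had been seen, and the genes that share sequence are mostly those of the lower part of the pathway. Whether the sharing had a part in the fold changes was not tested.

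Of the copies with entries of their own, Eno1b, Aldoart1 and Gapdh-ps15 were looked at. Eno1b, a copy of Eno1 that shares 75.3% of its windows with it, had 621 ± 112 CPM in new and 890 ± 56.7 CPM in aggressive AML, more than Eno1 itself, with a log2 fold change of 0.52 (SE 0.11, edgeR adjusted p = 0.00336). Eno1 and Eno1b summed to 867 ± 159 and 1241 ± 69.1 CPM, and these sums did not overlap between the groups. Aldoart1, in which 6.27% of the windows of Aldoa are found, was low, at 7.81 ± 1.77 CPM in new and 11.7 ± 0.70 CPM in aggressive AML. Its groups did not overlap (log2 fold change 0.58, SE 0.19, edgeR adjusted p = 0.0411). Gapdh, which is among the most abundant transcripts of most cells, was listed at only 41.8 ± 6.62 and 48.9 ± 4.44 CPM and ranked number 12 of the 18 glycolysis genes per kb. The pseudogene Gapdh-ps15, annotated on chromosome Y, had 71.0 to 90.0 CPM in new AML and 90.5 to 102 CPM in aggressive AML, although the 4 Y-linked genes above had 0 counts in the latter. The levels of Gapdh, Eno1 and Pgk1 are thus uncertain. Pfkp shares 748 exonic bases with its neighbour Pitrm1, which stood at 102 and 116 CPM (adjusted p = 0.170, not called).

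**Figure D3:**
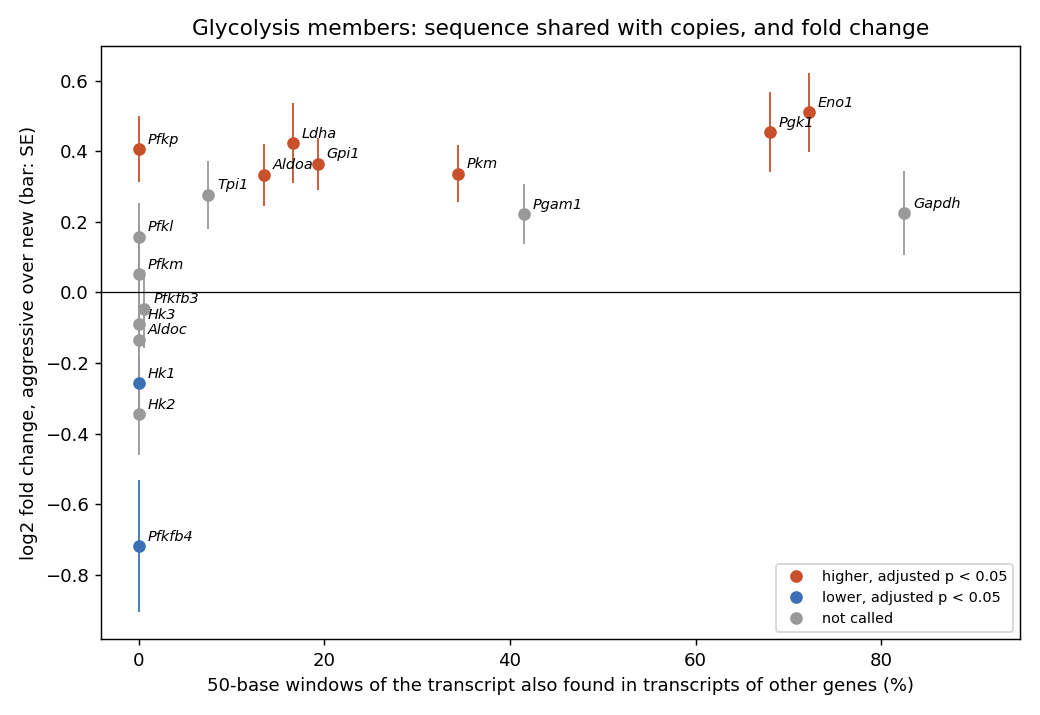
Share of 50-base transcript windows also present in transcripts of other genes (x axis, %) against the log2 fold change with its standard error (y axis, aggressive over new AML) for the 18 glycolysis genes, colored by call as red for higher, blue for lower and gray for not called. The 8 genes over 10% all lie above 0, and the genes near 0% spread from -0.72 (Pfkfb4) to 0.41 (Pfkp).

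Promoters were examined for ACGTG, the core of the hypoxia response element bound by HIF factors, and CACGTG, the E-box bound by MYC and related factors. Every ACGTG was counted on both strands, so CACGT counts too, and each CACGTG also holds an ACGTG. RefSeq windows of 250 bases before to 50 bases after each start site (GRCm38.p6) were matched for 47 members. ACGTG was present in at least one window of 12 of 18 glycolysis genes (66.7%), 1 of 7 pentose phosphate genes (14.3%) and 3 of 14 TCA genes (21.4%), against 21.8% of 27025 genes overall. It was also present for 3 of the 6 pyruvate dehydrogenase genes and for both entry and exit genes with a window. Counted by window, the shares were 50% of 30 glycolysis, 42.9% of 7 pyruvate dehydrogenase, 40% of 20 TCA and 12.5% of 8 pentose phosphate windows, and 19.6% of all 32851 windows, where windows of the same gene can overlap. CACGTG was present in 3 of 18 glycolysis genes (16.7%) and 8.09% of genes overall. The genes overall are all those with a RefSeq window, whether or not they are in the count table. A gene with more windows has more places to hold a motif, and the differences between these shares were not tested. Within glycolysis, ACGTG was found for 4 of the 7 genes that rose (Aldoa, Pgk1, Pkm and Ldha), 1 of the 2 that fell (Hk1) and 7 of the 9 not called. The 250 bases upstream of 3 starts are printed 5′ to 3′ on the strand of the gene, with matches to ACGTG or CACGT in capitals: Ldha, which rose and holds 3 matches, of which 2 are CACGTG; Hk2, which holds 2 and was not called; and Eno1, which rose and holds none in this window. They lie at chr7:46845554-46845803 on the plus strand, inside the Ldha span but outside its GENCODE exons, chr6:82774455-82774704 on the minus strand and chr4:150236458-150236707 on the plus strand.
Ldha: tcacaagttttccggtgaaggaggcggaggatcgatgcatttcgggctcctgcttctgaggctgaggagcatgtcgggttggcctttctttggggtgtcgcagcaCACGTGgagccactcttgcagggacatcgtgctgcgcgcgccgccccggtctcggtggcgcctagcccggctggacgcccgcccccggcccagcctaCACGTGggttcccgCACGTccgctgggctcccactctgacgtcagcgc
Hk2: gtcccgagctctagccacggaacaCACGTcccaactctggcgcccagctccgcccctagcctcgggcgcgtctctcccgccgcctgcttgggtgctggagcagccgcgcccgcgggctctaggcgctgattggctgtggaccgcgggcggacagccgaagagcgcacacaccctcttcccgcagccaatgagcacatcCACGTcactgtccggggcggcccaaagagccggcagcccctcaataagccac
Eno1: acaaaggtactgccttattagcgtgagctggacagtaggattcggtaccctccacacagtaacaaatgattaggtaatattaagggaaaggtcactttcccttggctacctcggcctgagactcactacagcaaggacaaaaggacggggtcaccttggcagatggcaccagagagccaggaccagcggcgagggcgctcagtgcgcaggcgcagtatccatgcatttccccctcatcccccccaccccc

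The pyruvate dehydrogenase complex links glycolysis to the TCA cycle. None of its 6 members was called, with 1 of 6 at an unadjusted p under 0.05, although all 6 fold changes were above 0, from 0.04 for the kinase Pdk2 to 0.17 for the kinase Pdk3. The catalytic subunit Pdha1 had no overlap between the groups, at 127 to 143 CPM in new and 145 to 160 CPM in aggressive AML (log2 fold change 0.16, edgeR adjusted p = 0.144). It shares 603 exonic bases with Map3k15, which rose from 7.54 to 14.3 CPM on average. Pdhb, Dlat and Dld, the other catalytic parts, had fold changes of 0.14, 0.05 and 0.10.

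In the pentose phosphate pathway 1 of 7 genes rose, 1 fell and 5 were not called. Pgls, the lactonase of the oxidative arm (chr8:71592184-71596267, plus strand), had 221, 220, 225 and 214 CPM in new AML, a narrow range, and 312, 256, 282 and 249 CPM in aggressive AML. The groups did not overlap, and Pgls rose by 0.32 (SE 0.08, edgeR adjusted p = 0.0107). Rpia, the isomerase that forms ribose 5-phosphate (chr6:70765720-70792175, minus strand), had 83.3, 79.4, 78.2 and 70.9 CPM in new and 67.3, 68.4, 61.9 and 55.6 CPM in aggressive AML. It fell by 0.30 on the log2 scale with no overlap (SE 0.09, adjusted p = 0.0313). Its call was made in 4 of the 8 fits that left out a library and was absent without new AML replicate 1 or 2 or aggressive AML replicate 3 or 4. Rpe, the epimerase acting on the same substrate, also had no overlap, at 67.5 to 77.6 CPM in new and 50.7 to 66.8 CPM in aggressive AML, with an adjusted p of 0.0549 (log2 fold change -0.28). Rpe shares 443 exonic bases with Kansl1l, which was not called (log2 fold change -0.20).

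The 3 most abundant pentose phosphate genes per kb were Taldo1 at 463, Tkt at 311 and Pgd at 282 CPM per kb. Transaldolase Taldo1 had 612, 622, 631 and 644 CPM in new and 695, 606, 640 and 605 CPM in aggressive AML, and transketolase Tkt had 1069, 976, 1044 and 892 CPM in new and 1115, 977, 1039 and 914 CPM in aggressive AML. For both the groups overlapped, although aggressive AML replicate 1 lay above every new library. The log2 fold changes were 0.02 (SE 0.07, edgeR adjusted p = 0.857) and 0.02 (SE 0.08, adjusted p = 0.869). Pgd, the second NADPH-forming dehydrogenase, had 556, 605, 626 and 547 CPM in new and 741, 666, 610 and 645 CPM in aggressive AML, with aggressive AML replicate 3 inside the range of new AML (0.19, SE 0.08, adjusted p = 0.101). The rate-limiting G6pdx stood at 222 ± 12.6 and 211 ± 9.94 CPM (adjusted p = 0.501).

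In the TCA list, which also holds cytosolic enzymes such as Idh1 and Mdh1, 2 genes rose and 1 fell. Idh1, the cytosolic NADP-dependent isocitrate dehydrogenase (chr1:65158616-65186479, minus strand), had 97.8, 111, 107 and 122 CPM in new and 88.5, 77.4, 66.3 and 88.8 CPM in aggressive AML. Every aggressive library lay below every new one, and Idh1 fell by 0.45 on the log2 scale (SE 0.10, edgeR adjusted p = 0.00668), a call made in all 8 fits that left out a library. Its mitochondrial counterpart Idh2 stood at 153 ± 11.3 and 152 ± 20.7 CPM (adjusted p = 0.995), and the 3 subunits of the NAD-dependent enzyme, Idh3a, Idh3b and Idh3g, were not called. Idh3g, number 2 of the cycle per kb at 145 CPM per kb, had 182, 175, 195 and 195 CPM in new and 215, 194, 202 and 184 CPM in aggressive AML, which gave no call (fold change 0.09 on the log2 scale, SE 0.07, adjusted p = 0.427).

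The members that rose in the cycle did so by less. Sucla2, the ATP-specific subunit of succinyl-CoA ligase (chr14:73552786-73596144, plus strand), had 62.3, 67.3, 72.7 and 70.7 CPM in new and 82.3, 78.0, 84.0 and 79.0 CPM in aggressive AML, with no overlap (log2 fold change 0.24, SE 0.08, edgeR adjusted p = 0.0469). Mitochondrial malate dehydrogenase Mdh2 (chr5:135778649-135790386, plus strand), the most abundant of the cycle at 192 CPM per kb, had 264, 248, 285 and 220 CPM in new and 327, 308, 305 and 282 CPM in aggressive AML (0.26, SE 0.08, adjusted p = 0.0403). For Mdh2 only new AML replicate 3 passed aggressive AML replicate 4. Cytosolic Mdh1, at 106 CPM per kb, had 209, 221, 252 and 230 CPM in new and 232, 202, 238 and 223 CPM in aggressive AML, with overlap (-0.03, SE 0.08, adjusted p = 0.852). Sucla2 and Mdh2 were close to the threshold: both calls were absent without new AML replicate 1, 2 or 4 or without aggressive AML replicate 1, 2 or 3, where the count of TCA genes that rose went from 2 to 0, and it was 1 without aggressive AML replicate 4.

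The remaining TCA genes spanned log2 fold changes from -0.25 for Ogdh (222 ± 27.2 to 186 ± 15.4 CPM, edgeR adjusted p = 0.0674) to 0.22 for Suclg2, the GTP-specific ligase partner, which had no overlap (39.5 to 42.6 CPM in new and 42.9 to 50.5 CPM in aggressive AML, adjusted p = 0.116). The entry and exit enzymes Me2, Pcx and Acly had fold changes of -0.08, 0.02 and 0.02, none called and none of the 3 at an unadjusted p under 0.05. Pyruvate carboxylase Pcx was low, at 8.59 and 8.71 CPM, while the citrate-cleaving Acly stood at 366 and 370 CPM.

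Summed over members, the share of each library taken by glycolysis was larger on average in aggressive AML. The 18 glycolysis genes summed to 6627, 6490, 7445 and 6010 CPM in new and to 8231, 8161, 7875 and 7435 CPM in aggressive AML, a ratio of means of 1.19, with new AML replicate 3 just above aggressive AML replicate 4. The pentose phosphate genes summed to 2800 ± 94.1 and 2923 ± 202 CPM, the TCA genes to 2215 ± 106 and 2269 ± 89.5 CPM, and the pyruvate dehydrogenase genes to 472 ± 32.3 and 516 ± 9.44 CPM (SD, n = 4), all with overlap. The ratio of the glycolysis sum to the TCA sum was 2.97, 3.02, 3.16 and 2.83 in new and 3.4349, 3.6269, 3.5122 and 3.3995 in aggressive AML, with no overlap. The ratio to the pentose phosphate sum was 2.24 to 2.56 in new and 2.56 to 2.86 in aggressive AML, where the ranges almost touch. The 10 glycolysis genes with at most 10% of shared windows summed to 2264 ± 122 and 2322 ± 128 CPM. Sums weigh abundant and long transcripts most, and no test was made on them.

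**Figure D4:**
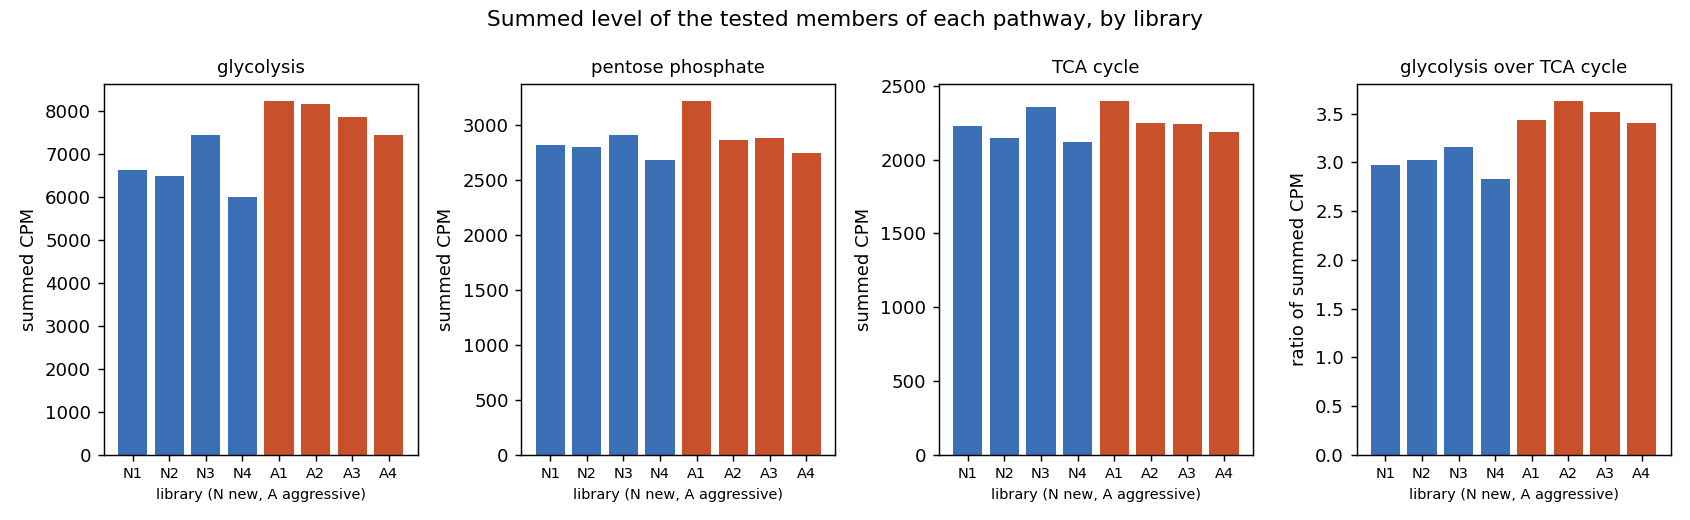
Summed CPM of the tested members of glycolysis, the pentose phosphate pathway and the TCA cycle in each library, and the ratio of the glycolysis to the TCA sum (right panel); N1 to N4 are new AML (blue) and A1 to A4 aggressive AML (red) replicates, and all bars start at 0. The ratio is 2.83 to 3.16 in new AML and 3.3995 to 3.6269 in aggressive AML, while the pentose phosphate and TCA sums overlap.

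Ratios between enzymes of the same step, which do not depend on how libraries are scaled, were computed for 10 pairs from counts per kb with 0.5 counts added. The smallest p that an exact permutation test of 4 against 4 libraries allows is 0.0286. After Benjamini-Hochberg adjustment over the 10 ratios no pair passed 0.05, and even the 3 pairs at that smallest p had an adjusted p of 0.0952. The lack of calls thus says little about whether a ratio changed. The groups did not overlap for 3 pairs. The log2 ratio of Pfkfb3 to Pfkfb4 was 2.27 ± 0.20 in new and 2.95 ± 0.42 in aggressive AML (SD, n = 4; two-sided exact permutation p = 0.0286, adjusted 0.0952), Aldoc to Aldoa went from -7.25 ± 0.21 to -7.72 ± 0.26 and Mdh2 to Mdh1 from 0.70 ± 0.17 to 0.99 ± 0.12, both with the same p. Idh2 to Idh1 was 0.99 ± 0.23 in new and 1.43 ± 0.23 in aggressive AML, with overlap (exact permutation p = 0.0571, adjusted 0.143). The hexokinase ratios Hk2 to Hk1 and Hk3 to Hk1 differed by -0.11 and 0.16 (exact permutation p = 0.714 and 0.143).

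**Figure D5:**
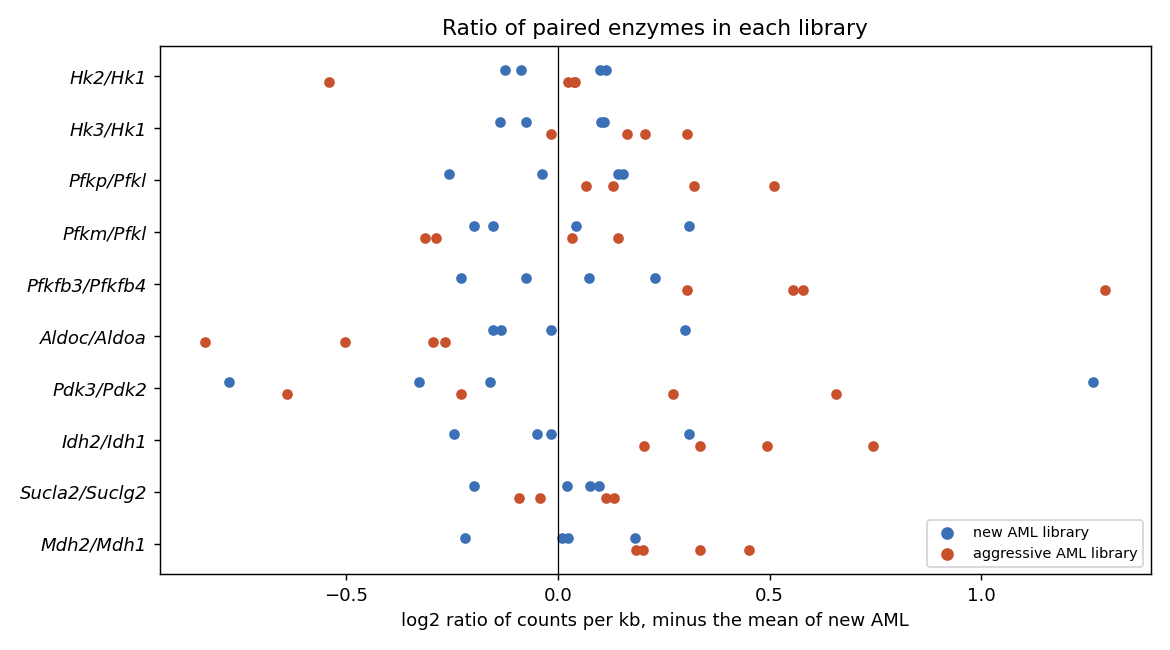
Log2 ratio of counts per kb for 10 pairs of enzymes of the same step, one point per library, with the mean of new AML subtracted so that 0 is the new AML mean (x axis); new AML libraries are blue and aggressive AML libraries red. Points of the groups do not overlap for Pfkfb3/Pfkfb4, Aldoc/Aldoa and Mdh2/Mdh1.

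Other genes of these pathways, from a list drawn up by function, were counted in the same fit. Of 65 tested, 11 rose and 5 fell (24.6%, beside 18.4% of all genes), and their median was 0.04. Among 16 transporters 3 rose and 2 fell. The glucose carrier Slc2a1 rose from 30.7 ± 3.69 to 45.4 ± 4.20 CPM (log2 fold change 0.56, edgeR adjusted p = 0.00281). The lactate exporter Slc16a3 rose from 51.9 ± 12.4 to 118 ± 7.48 CPM (1.19, adjusted p = 3.12e-05), with 36.3 to 65.2 CPM in new and 108 to 127 CPM in aggressive AML. Slc2a9, a urate carrier of the glucose transporter family, rose by 0.70, whereas Slc2a6 fell by 0.51 and the monocarboxylate carrier Slc16a7 fell by 1.15 on the log2 scale.

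Among 19 other genes listed with glycolysis, which include gluconeogenic and sugar-converting enzymes, 5 rose and 1 fell. Besides Eno1b these were Fbp1, the gluconeogenic bisphosphatase (log2 fold change 0.97, at 4.46 and 8.77 CPM), Pgm2 (0.42), the galactose kinase Galk1 (0.36) and Pgam5, a mitochondrial protein phosphatase despite its name (0.26, called in 1 of the 8 fits that left out a library), and the red cell and liver pyruvate kinase Pklr, which was at 1.55 to 5.85 CPM in new AML and at 0 to 1.08 CPM in aggressive AML. Around pyruvate dehydrogenase 2 of 8 rose and 1 fell: the inhibitory kinase Pdk1 had 55.4 to 56.9 CPM in new and 80.0 to 85.6 CPM in aggressive AML (0.54, edgeR adjusted p = 0.000164), Lias rose by 0.40 and the activating phosphatase Pdp2 fell by 0.39. Of 7 further pentose phosphate genes 1 fell (Pgm2l1, by 0.40), and 14 of 15 further TCA genes were not called.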

How the data were processed

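RNA of 8 libraries, 4 of new AML and 4 of aggressive AML, was measured in a single table. The authors aligned read pairs to mm10 with HISAT2 and counted genes with Rsubread; the deposited values, although named CPM, are whole-number counts per gene, and strand and multi-mapping settings are not given in the sources used here. The table lists 12823 genes, of which 329 fell under the filter used here. Groups followed the sample titles. Genes that reached 1 CPM in 4 or more of the 8 libraries were tested with edgeR 4.0.16 (TMM, quasi-likelihood, group as the only term) and Benjamini-Hochberg adjustment; the authors used limma on log2 CPM. Alternatives were DESeq2 1.42.0, limma 3.58.1 on log2(CPM + 1), other scalings, no filter, a replicate block and leaving out each library. The calling step was tested on simulated data. A p-value here sets the difference between the groups against the spread between libraries within a group. The aggressive cells are described as passaged from the new ones, so no p-value or SD here extends to other leukemias. Per kb levels used the union of GENCODE M21 exons, and SDs are the spread between libraries. Named were all called members, the 3 most abundant per kb in each pathway, and called genes of the other pathway lists; further genes were picked with their values known, and a called gene of the other lists is not reported here. The members and lists were chosen with earlier results of these data known. Calculations used R 4.3.3 and Python 3.11.15.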

Additional observations from a re-analysis of the deposited data

Results flagged for a closer look

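In each group of 4 libraries the gap between an extreme library and its nearest neighbour was divided by the range of the group. Of 128 groups examined, among them those of the members and their ratios, 8 had a gap above Dixon's 95% critical value for 4 samples. Chance alone marks about 1 in 20 groups, and because the groups share the same libraries the flags are not independent.

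In new AML, replicate 3 was set apart as the highest library for Tpi1 (599 CPM) and Fh1 (151 CPM), and replicate 4 as the lowest for Pgam1 (244 CPM). In aggressive AML, replicate 4 was set apart as the lowest for Pkm (1754 CPM) and citrate synthase Cs (261 CPM), replicate 1 as the highest for Idh3b (149 CPM), and replicate 3 as the highest for Me2 (162 CPM). The log2 ratio of Hk2 to Hk1 was -0.924 in aggressive AML replicate 3, where the 3 other aggressive libraries lay between -0.360 and -0.343.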

How the results depend on the processing

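DESeq2, limma, other scalings, no filter and the replicate block left the 7 glycolysis genes that rose and the 2 that fell called. Counts of called members moved by over 1.5 times only as follows: pentose phosphate genes that fell were 2 with DESeq2 (1 otherwise), and TCA genes that rose were 1 with limma, with library totals only and with the replicate block (2 otherwise). Same-numbered libraries deviated together only weakly (correlations from -0.0654 to 0.204), so the numbers were not taken as pairs; the block called 2367 genes in all against 2296.

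With members limited, after the data were seen, to at most 10% of shared windows, 4 members and 1 glycolysis gene rose and the glycolysis median was -0.068; at 20%, 4 glycolysis genes rose and the median was 0.052. Fewer genes enter these counts.

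Leaving out each library gave, for all members, 6 to 11 that rose and 2 to 5 that fell; for glycolysis, 1 to 2 that fell; for the pentose phosphate pathway, 0 to 2 that fell; and for the TCA cycle, 0 to 2 that rose and 1 to 2 that fell. These fits hold fewer libraries, and over all genes they called 1466 to 2324, against 2296 with all 8 libraries. Fold changes near 0 changed sign: Tkt ranged from -0.027 (without new AML replicate 4; -0.026 without aggressive AML replicate 1) to 0.076, Taldo1 from -0.021 (without aggressive AML replicate 1) to 0.052, and Mdh1 from -0.066 to 0.024 (without new AML replicate 3; 0.023 without aggressive AML replicate 2). Ldha was not called without new AML replicate 2 (adjusted p = 0.066), nor Aldoa without new AML replicate 2 or aggressive AML replicate 1 (0.0517 and 0.0503), nor Pfkfb4 without aggressive AML replicate 2 (adjusted p = 0.052). Of the other pathway genes, Pgam5 and Pdp2 were not called with the replicate block, Pgam5 was not called with limma (0.0524) or library totals only (0.0513), and Galk1, Pdp2, Lias and Pgm2l1 were each lost in 2 to 5 of the 8 fits without a library. Depth limits low genes: Pdk2, at 1.87 CPM in new AML, had an SE of 0.43 on the log2 scale, so a change of the size of the other members was not detectable for it.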
